A study of Bos taurus with 8 samples.

Results

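The genes described are the network of MYC, MAX and the MXD proteins in the bovine corpus luteum (CL) on day 17. They were found as the rows of the table whose symbol equals, ignoring case, one of 10 listed names, and 9 of the 10 were found among the 13861 genes of the table. The 9 are MYC, MYCN, MAX, MXD1, MXD4, MXI1, MNT, MLX and MGA. No row of the table used here had the symbol MYCL. Older names of this gene were not looked for, so its absence is one of symbol only. The members were chosen by their place in the network and on the measured pregnant over cyclic differences of these same CL, so the differences of single members are given as a description, with no p-value. Calls from the fit over all genes are given once, as counts, and support nothing here.

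MYC is a transcription factor that binds E-box elements of DNA only as a pair with MAX, and it raises transcription of genes for ribosome production, nucleotide synthesis and entry into the cell cycle. The MXD proteins, MNT and MGA compete for MAX and, on the same elements, hold transcription down by bringing histone deacetylases or Polycomb proteins. The CL is the gland that forms from the ovulated follicle and makes progesterone, and MYC mRNA is short-lived and is induced within a short time of growth or stress signals in many cell types.

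Each CL came from a different Holstein heifer. In the CL of pregnancy (n = 4, replicates 1, 2, 4 and 5) the heifer had been bred and was pregnant, and in the CL of the estrous cycle (n = 4, replicates 1 to 4) the heifer had not been bred. Both groups were collected on day 17, and no other treatment separates them in the labels. Total RNA of whole CL tissue was sequenced by a strand-specific protocol, so that fewer cells of a type and less RNA per cell cannot be told apart.

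Values are normalized counts, which are the reads of a gene divided by 1 factor for each CL, where 1 read is worth 0.920 to 1.09 normalized counts. Reads were recovered by taking the smallest value of a CL as 1 read. Over the 13861 genes of the table they summed to 42770725 to 48294165 in a CL, which leaves out reads outside these genes. No library stood as a copy of another. Transcript length was not used, so a level is compared between CL and never between genes. The 7 markers of luteal steroidogenic cells, among them STAR and HSD3B1, summed to 1600592 to 2329952 normalized counts in the CL of pregnancy and 1494976 to 1775325 in the CL of the estrous cycle, and each of the 7 was abundant in every CL. The T and NK cell markers (7 of 7 in the table) summed to 2478 to 3098 in the CL of pregnancy. In the CL of the estrous cycle they summed to 1353 to 2428, so the sums did not overlap but nearly met. All 7 had a log2 difference of pregnancy over the estrous cycle above 0, with a median of 0.55. Of the 7 genes only CD2 lay apart by itself, beside 2.03% of all genes lying apart and higher. The part of these cells in the results on the members was not tested. Sums of the other markers overlapped between the groups. Endothelial cells (6 of 6) had 64413 to 90128 in pregnancy and 69690 to 83992 in the estrous cycle. Pericytes and smooth muscle (5 of 6) had 60922 to 84765 in pregnancy and 64948 to 79612 in the estrous cycle. Fibroblasts (6 of 6) had 620910 to 800220 in pregnancy and 655819 to 1017374 in the estrous cycle. Macrophages (6 of 6) had 6791 to 14668 in pregnancy and 6819 to 11860 in the estrous cycle. All 6 fibroblast markers had log2 differences below 0 (median -0.17), beside 49.9% of all genes. Only DCN of them lay apart and lower, beside 2.27% of all genes. Differences above and below 0 numbered 2 and 4 for endothelial cells, 2 and 3 for pericytes and smooth muscle, and 1 and 5 for macrophages. Steroidogenic markers had 6 above and 1 below. The part of these cell types was not tested either.

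No member passed the test across all genes, which was limma's on log2(normalized count + 1), with p-values adjusted by Benjamini-Hochberg and called under 0.05. This gave 0 of 9 members, against 0.0216% of all genes (0.0144% higher and 0.00721% lower). At an unadjusted p under 0.05, limma gave 1 member higher in pregnancy, against 3.66% of all genes, and 1 lower, against 3.85%. On reads recovered from the table, 0 of the 9 members were called at an adjusted p under 0.05 by edgeR (against 0.00721% of all genes, in the direction of lower in pregnancy), by limma-voom (against 0.00721%, also lower) and by DESeq2 (against 0.685%, with 0.404% lower). At an adjusted p under 0.10, a threshold added after seeing the data, DESeq2 called 1 of the 9, against 1.14% of all genes. In 0 of the 9 did the CL of one group lie wholly apart from those of the other, against 4.30% of all genes. The differences of 6 members were above 0 and those of 3 were below 0. These counts use the contrast on which the list was made, and nothing is read from them.

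**Figure D1:**
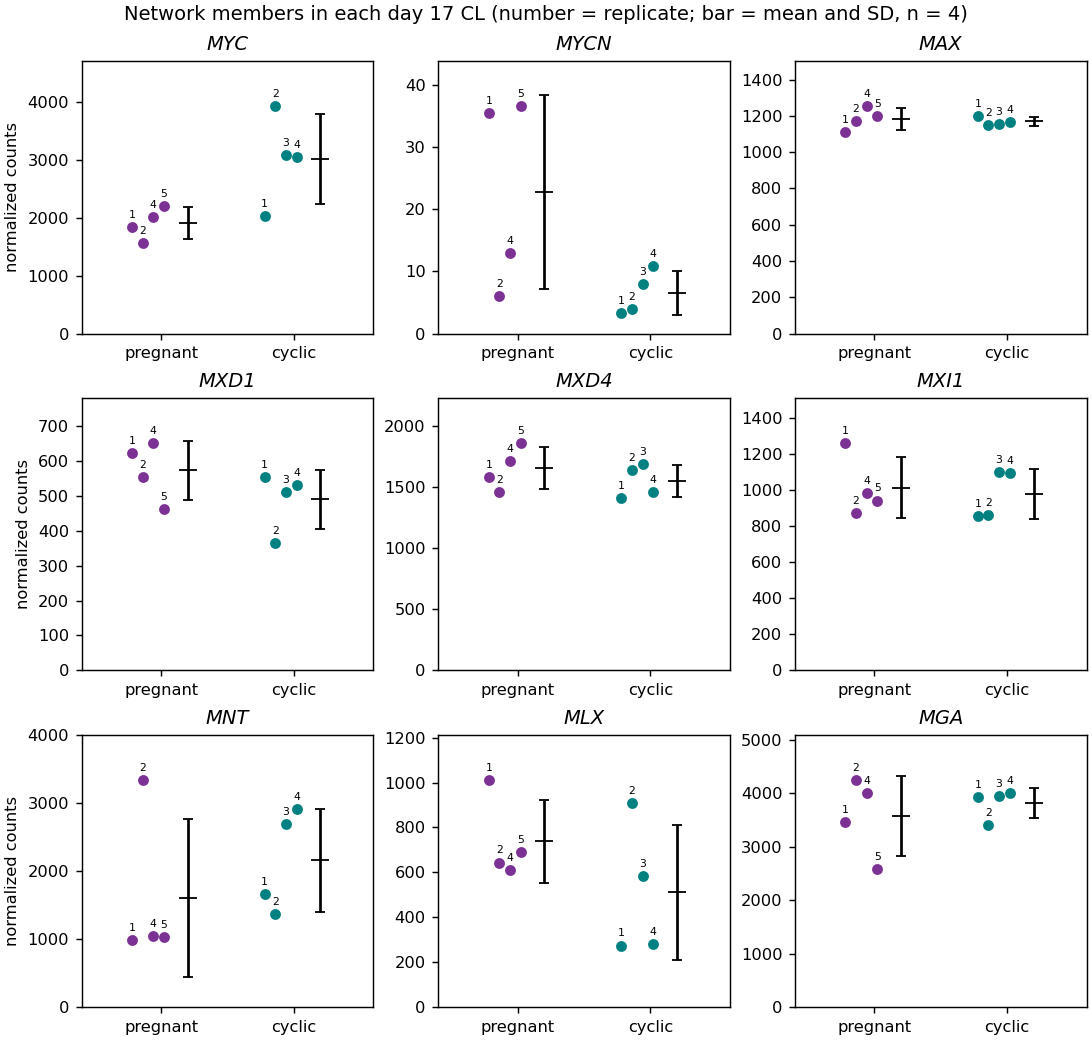
Abundance of the 9 network genes in each CL. Each panel is 1 gene with its own axis in normalized counts, points are single CL numbered by replicate, pregnancy stands left of the estrous cycle, and the bar beside the points gives the group mean and SD (n = 4 each). MYC has 3 CL of pregnancy below every CL of the estrous cycle, MAX lies within a narrow band, and MNT in pregnant replicate 2 (3341) stands above the other 7 CL.

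The proteins that activate transcription were measured as MYC and MYCN. MYC (ENSBTAG00000008409), the member that most cells use, had 1837, 1568, 2016 and 2211 normalized counts in the CL of pregnancy (replicates 1, 2, 4 and 5), against 2028, 3923, 3078 and 3054 in the CL of the estrous cycle (replicates 1 to 4). In pregnancy 3 of 4 CL lay below every CL of the estrous cycle, and cyclic replicate 1 lay inside the range of pregnancy, so the groups overlapped. The log2 difference of pregnancy over the estrous cycle was -0.64 (SE 0.19), and it ran from -0.81 without cyclic replicate 1 to -0.50 without cyclic replicate 2. The SD of MYC was 273 in pregnancy and 775 in the estrous cycle, or 14.3% and 25.7% of the group means. Whether the spread differs between groups of 4 CL was not tested.

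MYCN (ENSBTAG00000023372), a paralog best known from neural and embryonic tissue, was counted from few reads. It had 37, 6, 14 and 34 reads in the CL of pregnancy, against 3, 4, 8 and 11 in the CL of the estrous cycle, which makes 91 reads against 26. In normalized counts these were 35.5, 5.97, 12.9 and 36.5 in pregnancy, against 3.26, 3.86, 7.91 and 10.8 in the estrous cycle. In pregnancy 3 of the 4 CL lay above every CL of the estrous cycle, and pregnant replicate 2 lay inside the range of the estrous cycle. The log2 difference was 1.48 (SE 0.63) on the log2(normalized count + 1) scale, which understates changes of low genes, and it was 1.16 without pregnant replicate 5 and 1.97 without pregnant replicate 2. Numbers of reads from 2 to 9 were even in 71.4 to 77.2% of genes, so that low reads in this table do not behave as independent counts and MYCN is less precise than its reads would give.

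MAX (ENSBTAG00000017994), the shared partner with which MYC, MYCN, the MXD proteins, MNT and MGA bind DNA, had 1110, 1172, 1252 and 1199 normalized counts in the CL of pregnancy, against 1201, 1152, 1155 and 1169 in the CL of the estrous cycle. The highest CL had 1.13 times the lowest. Its log2 difference was 0.02 (SE 0.09), and without pregnant replicate 4 it was -0.01. Within groups the coefficient of variation of MAX was 3.8%. Of 6882 genes with a mean of 300 to 5000 normalized counts, 0.7% had a lower one, and their median was 13.3%. MYC, at 23.6%, was above 84.0% of the same genes. MAX thus had almost one level in the 8 CL while its partner MYC did not.

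The MXD proteins displace MYC from MAX and recruit the SIN3 corepressor, and MXD1 and MXD4 are linked to cells that leave the cycle and differentiate. MXD1 (ENSBTAG00000001042) had 623.5, 555.3, 651.3 and 462.1 normalized counts in the CL of pregnancy, against 553.3, 364.1, 512.0 and 530.0 in the CL of the estrous cycle. In pregnancy 3 of the 4 CL lay above every CL of the estrous cycle, pregnant replicate 5 lay within their range, and the lowest value was that of cyclic replicate 2, the CL with the most MYC. The log2 difference was 0.23 (SE 0.17), and it was 0.10 without cyclic replicate 2.

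MXD4 (ENSBTAG00000015209) had 1580, 1464, 1714 and 1861 normalized counts in the CL of pregnancy, against 1414, 1641, 1690 and 1459 in the CL of the estrous cycle. These groups overlapped over most of their range, and the log2 difference was 0.09 (SE 0.11), with 0.03 left without pregnant replicate 5. MXI1 (ENSBTAG00000017263), the MXD protein named for its interaction with MAX, had 1258, 869.8, 979.8 and 940.4 in the CL of pregnancy, against 852.2, 858.7, 1096 and 1093 in the CL of the estrous cycle. Pregnant replicate 1 was the highest of the 8 and the others were mixed. Its log2 difference was 0.05 (SE 0.15), and the sign turned without pregnant replicate 1 (-0.06), cyclic replicate 1 (-0.01) or cyclic replicate 2 (-0.01).

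MNT (ENSBTAG00000025129), a broadly expressed repressor that keeps MYC in check in resting cells, had 982.2, 3341, 1044 and 1030 normalized counts in the CL of pregnancy, against 1667, 1361, 2687 and 2911 in the CL of the estrous cycle. Pregnant replicate 2 was the highest of all 8 CL and the other 3 CL of pregnancy were below every CL of the estrous cycle. Its log2 difference was -0.58 (SE 0.40) with all CL. Without pregnant replicate 2 it was -1.01, with means of 1019 ± 32.4 (SD, n = 3) in pregnancy and 2157 ± 758 (SD, n = 4) in the estrous cycle. The within-group coefficient of variation of MNT was 52.2%, above that of 98.1% of the genes of like abundance, and pregnant replicate 2 also had the lowest MYC of the 8.

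MLX (ENSBTAG00000046670) is a MAX-like protein that pairs with MXD1, MXD4 and MNT and with the glucose-sensing factors MLXIP and MLXIPL, and the table describes its row as a fragment. It had 1012, 643.9, 610.9 and 690.0 normalized counts in the CL of pregnancy, against 273.9, 907.9, 583.1 and 282.6 in the CL of the estrous cycle. The CL of pregnancy all lay above 3 of the 4 CL of the estrous cycle, while cyclic replicate 2 was higher than 3 of the 4 CL of pregnancy. The log2 difference was 0.68 (SE 0.37), and ran from 0.45 without cyclic replicate 1 to 1.02 without cyclic replicate 2. The within-group coefficient of variation was 39.9%, above that of 96.0% of genes of like abundance.

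Partners of the network outside the 10 names are MLXIP, MLXIPL and MXD3, and they were picked for mention after their values were seen. MLXIP, also called MondoA, had 4471 ± 1039 normalized counts in the CL of pregnancy and 4415 ± 987 in the CL of the estrous cycle (SD, n = 4 each), a log2 difference of 0.02 (SE 0.19). MLXIPL, also called ChREBP, had 910 ± 196 in pregnancy and 787 ± 131 in the estrous cycle (SD, n = 4 each), a log2 difference of 0.20 (SE 0.18). MXD3, the MXD protein linked to dividing cells, had 66.2, 17.9, 55.2 and 40.8 in pregnancy, against 19.6, 114.9, 64.2 and 54.0 in the estrous cycle, where cyclic replicate 2 was the highest and pregnant replicate 2 the lowest of the 8. MYC had its highest and its lowest value in the same CL.

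MGA (ENSBTAG00000015138), a large protein that holds a T-box as well as a MAX-binding domain, had 3455, 4248, 4007 and 2582 normalized counts in the CL of pregnancy, against 3923, 3402, 3947 and 4007 in the CL of the estrous cycle. The highest and the lowest of the 8 CL were both of pregnancy. Its log2 difference was -0.12 (SE 0.15), and without pregnant replicate 5, the lowest, it was 0.03. Among the 9 network genes, MYCN, MLX, MYC and MNT thus differed by over 0.5 on the log2 scale and the other 5 by 0.23 or less.

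**Figure D2:**
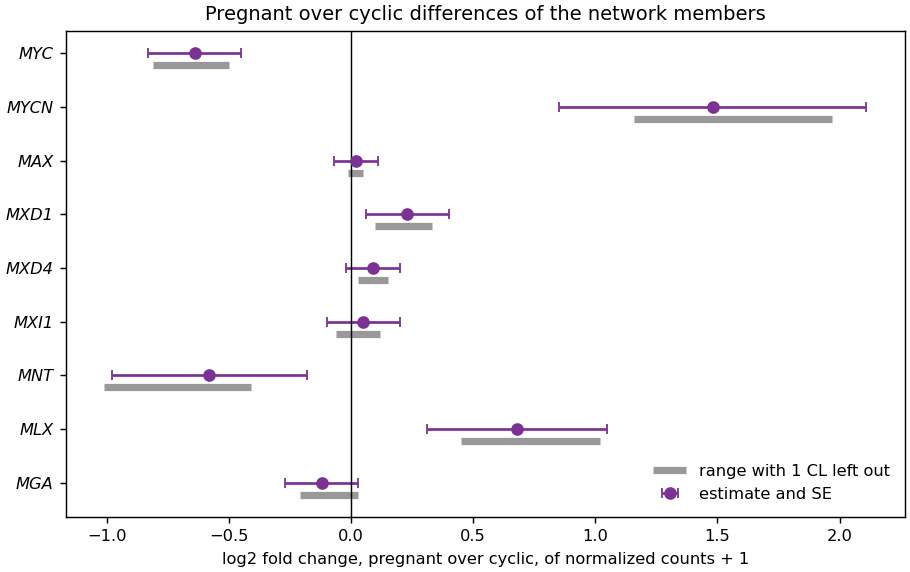
Log2 difference of the CL of pregnancy over the CL of the estrous cycle for the 9 network genes, in order of role. Points are limma estimates from 4 CL in each group, bars are 1 SE, and the grey band under each spans the values with each CL left out in turn. MYCN (1.48) has the widest bar, MAX (0.02) the narrowest, and the band of MNT reaches -1.01.

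The level of MYC relative to the rest of the network was followed as the ratio of MYC to each of 7 other members within a CL, leaving out MYCN for its low reads. The ratio carries no unit of length and is compared only between CL. MYC to MXD4 was 1.16, 1.07, 1.18 and 1.19 in the CL of pregnancy, against 1.43, 2.39, 1.82 and 2.09 in the CL of the estrous cycle. These groups did not overlap, and the difference of the mean log2 ratio was -0.73, with an SD of 0.07 in pregnancy and 0.31 in the estrous cycle. MYC to MXI1 was 1.46, 1.80, 2.06 and 2.35 in pregnancy, against 2.38, 4.57, 2.81 and 2.79 in the estrous cycle, also without overlap, although pregnant replicate 5 and cyclic replicate 1 nearly met.

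MYC to MLX was 1.82, 2.44, 3.30 and 3.20 in the CL of pregnancy, against 7.41, 4.32, 5.28 and 10.8 in the CL of the estrous cycle, a difference of -1.32 with no overlap. For MAX the ratio was 1.66, 1.34, 1.61 and 1.84 in pregnancy, against 1.69, 3.41, 2.66 and 2.61 in the estrous cycle, and the groups overlapped through cyclic replicate 1. Overlap was also found for MXD1 (difference of -0.87), MGA (-0.52) and MNT (-0.05). For MNT the ratio was 1.87, 0.469, 1.93 and 2.15 in pregnancy, against 1.22, 2.88, 1.15 and 1.05 in the estrous cycle, so that 3 of the 4 CL of pregnancy were above 3 of the 4 CL of the estrous cycle. The 3 of 7 ratios without overlap stand beside the 21.3% of 10314 genes whose ratio with MYC was lower in all 4 CL of pregnancy, and MYC is a part of every one of these ratios, so nothing is read from the count.

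**Figure D3:**
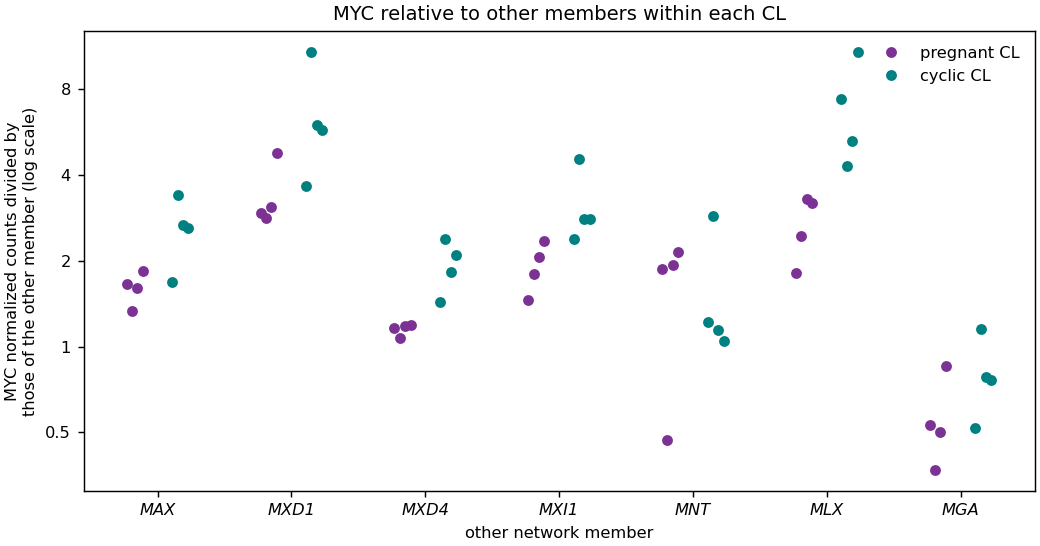
Ratio of the normalized counts of MYC to those of 7 network genes in each CL, on a log axis. Points are single CL, with pregnancy left of the estrous cycle. The ratios to MXD4, MXI1 and MLX do not overlap between groups, and the ratio to MNT does over most of its range.

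Genes that MYC is known to activate were followed through a list of 85, of which 77 were in the table. In limma, limma-voom and edgeR 0 of them passed, while DESeq2 called 3 (NOP58, PPAN and PTMA), against 0.685% of all genes. At an unadjusted p under 0.05, limma gave 1 of the 77 higher in pregnancy and 15 lower, against 3.66% of all genes higher and 3.85% lower. The groups lay apart in 0 higher and 5 lower, against 2.03% and 2.27% of all genes. Of the 77, 17 differences were above 0 and 60 (77.9%) below 0, with a median of -0.17, beside a median of 0.00 over all genes, of which 49.9% were below 0. The genes of a list are not independent of each other, and these are counts, not a test of the list.

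Among the targets for ribosome production, 32 of 37 were in the table, with 5 differences above and 27 below 0 and a median of -0.19. NOP58, a core protein of the particles that methylate ribosomal RNA, had 2683, 2830, 2496 and 2919 normalized counts in the CL of pregnancy, against 4065, 3698, 3569 and 3337 in the CL of the estrous cycle, with no overlap, and it had the smallest limma adjusted p of the targets (Benjamini-Hochberg, 0.431). WDR43, of the machinery that processes the small subunit RNA, had a log2 difference of -0.37 (SE 0.10). FBL, the methylase of the same particles as NOP58, had -0.39 (SE 0.14). NCL, nucleolin, was mixed, with -0.15 (SE 0.15).

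Among the targets for metabolism and growth, 26 of 28 were in the table, with 8 above and 18 below 0 and a median of -0.11, which ran from -0.14 to -0.07 with a CL left out. LDHA, which makes lactate from pyruvate, had 1997, 1392, 1799 and 2260 normalized counts in the CL of pregnancy, against 2753, 2532, 2389 and 2314 in the CL of the estrous cycle, just without overlap, with a log2 difference of -0.44 (SE 0.14). CTPS1, which makes CTP, had -0.35 (SE 0.11), and ENO1, a glycolytic enzyme, 0.16 (SE 0.12). PTMA, prothymosin alpha, had 20.1, 22.9, 25.8 and 22.6 in pregnancy, against 55.4, 60.9, 56.3 and 39.3 in the estrous cycle, but it has near-identical processed copies in mammalian genomes, so this value is uncertain. The 11 targets for mitochondria, such as PPRC1 (-0.33, SE 0.12), had 2 above and 9 below 0 with a median of -0.08, which was 0.00 without pregnant replicate 4 and -0.14 without pregnant replicate 2.

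For the cell cycle 8 of 9 targets were in the table, 2 above and 6 below 0, and their median was -0.31, or -0.13 without cyclic replicate 2. CCND2, cyclin D2, had 664.7, 569.3, 681.7 and 548.1 normalized counts in the CL of pregnancy, against 806.6, 1065, 889.5 and 590.8 in the CL of the estrous cycle, where cyclic replicate 2 was the highest. The markers of dividing cells in the table (3 of 6) summed to 653, 364, 811 and 541 in the CL of pregnancy, against 507, 1610, 756 and 937 in the CL of the estrous cycle. Cyclic replicate 2 and pregnant replicate 2 were thus the highest and the lowest of the 8, as they were for MYC. The part of dividing cells in the values of MYC was not tested.

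Genes that MYC is known to repress did not lie on the other side of 0 from those it activates. Of the 11 in the table, 2 were above and 9 below 0, with a median of -0.13 (-0.21 without cyclic replicate 1), and 0 passed in limma, limma-voom and edgeR. By DESeq2 the call was 1 gene of the 11, against 0.685% of all genes (0.404% lower). This was GADD45A, a stress-induced protein of growth arrest, at 1108, 955.4, 990.8 and 1225 normalized counts in the CL of pregnancy, against 1690, 1289, 1858 and 1818 in the CL of the estrous cycle. CDKN1A, the cell cycle inhibitor p21, had a log2 difference of -0.36 (SE 0.21), and NDRG2 had 0.21 (SE 0.12).

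**Figure D4:**
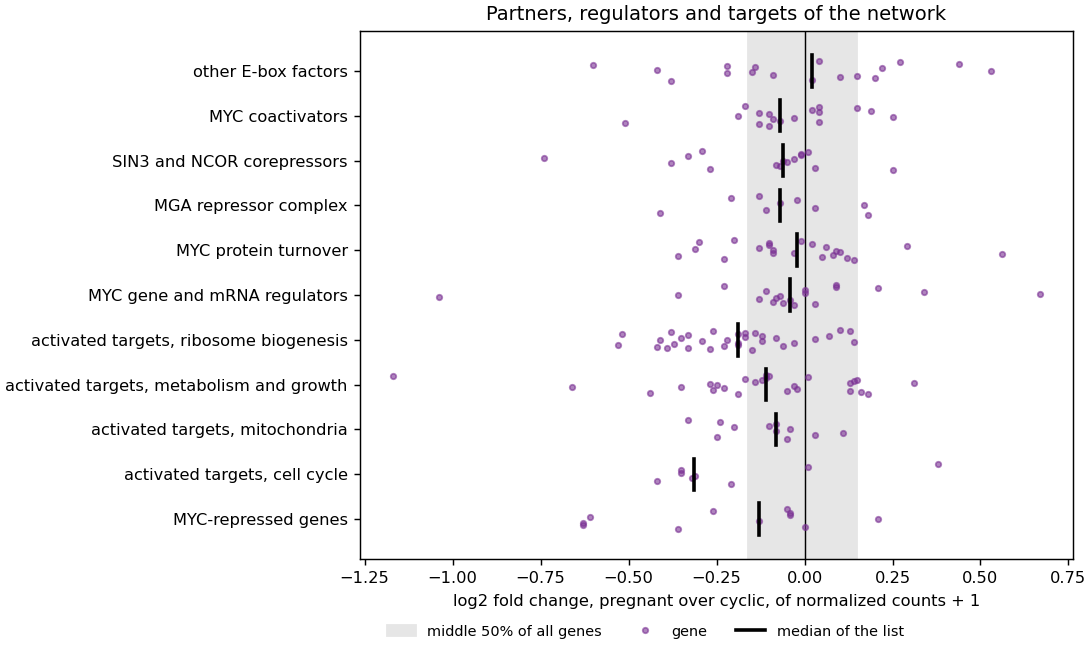
Log2 differences of the CL of pregnancy over the CL of the estrous cycle for the genes of each list of cofactors, regulators and targets. Points are genes, short vertical bars are list medians, the line is at 0, and the grey area holds the middle 50% of all 13861 genes (-0.16 to 0.15). The medians of the lists of activated targets lie between -0.31 and -0.08.

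Cofactors of the network had medians slightly below 0, close to that of the mitochondrial targets (-0.08). Over all genes the median was 0.00, and 49.9% of differences were below 0. The list of MYC coactivators, such as the acetylase KAT5 (-0.13, SE 0.09), had 7 differences above and 10 below 0, a median of -0.07 and no gene at an unadjusted limma p under 0.05. For the SIN3 and NCOR corepressors that MXD proteins and MNT recruit, 3 were above and 12 below 0, with a median of -0.06. Their deacetylases had differences of opposite sign. HDAC2 had 3352, 3128, 3075 and 3407 normalized counts in the CL of pregnancy, against 4460, 4079, 3613 and 3583 in the CL of the estrous cycle, with no overlap (-0.27, SE 0.09). HDAC1 had 9884, 10364, 8627 and 10222 in pregnancy, against 9166, 7969, 7204 and 8539 in the estrous cycle, with some overlap (0.25, SE 0.10).

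MGA works in a Polycomb complex with PCGF6, L3MBTL2 and E2F6, and of 9 genes of that complex 3 were above and 6 below 0, with a median of -0.07. PCGF6, the subunit that defines the complex, had 130.5, 120.4, 104.9 and 116.1 normalized counts in the CL of pregnancy, against 146.7, 165.2, 169.0 and 148.2 in the CL of the estrous cycle, with no overlap (-0.41, SE 0.18). L3MBTL2, which binds histones, had a log2 difference of 0.18 (SE 0.11). Of 17 other factors that bind E-box elements, 9 were above and 8 below 0, and the median was 0.02. BHLHE41, a repressor of the circadian clock, had 957.3, 1103, 1176 and 1079 in pregnancy, against 697.9, 1005, 810.5 and 703.7 in the estrous cycle, and only cyclic replicate 2 reached into the range of pregnancy (0.44, SE 0.14).

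Upstream of the MYC protein, 19 regulators of the MYC gene or mRNA were in the table, 8 above and 11 below 0, with a median of -0.04. HNRNPD, which binds AU-rich elements in the MYC mRNA, had 7255, 7080, 6387 and 7547 normalized counts in the CL of pregnancy, against 8721, 10395, 8433 and 8763 in the CL of the estrous cycle, with no overlap (-0.36, SE 0.09). ZFP36, which speeds decay of mRNA with AU-rich elements, had 4343, 1829, 3420 and 5489 in pregnancy, against 2351, 2219, 1881 and 2371 in the estrous cycle. For ZFP36, 3 of 4 CL of pregnancy were above every CL of the estrous cycle and pregnant replicate 2 was below them all (0.67, SE 0.28).

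Of 22 genes that control turnover of the MYC protein, 10 were above and 12 below 0, with a median of -0.02. GSK3B, the kinase that marks MYC for degradation, had 3868, 3801, 3558 and 2860 normalized counts in the CL of pregnancy, against 3038, 2416, 2958 and 3089 in the CL of the estrous cycle, and only pregnant replicate 5 lay in the range of the estrous cycle (0.29, SE 0.12). FBXO32, a ubiquitin ligase subunit, had 0.56 (SE 0.30). No gene of these lists of cofactors and regulators passed in limma, edgeR, limma-voom or DESeq2 at an adjusted p under 0.05. The genes named from them are among those with the smallest limma p of their list on this same contrast. Groups lay apart and lower in 1 of 15 corepressors, 1 of 9 MGA complex genes and 2 of 19 mRNA regulators, against 2.27% of all genes. They lay apart and higher in 1 of 17 other E-box factors, against 2.03%, and in no coactivator or turnover gene.

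Whether a member varied with the targets inside the groups is a comparison that the choice of members did not use. For each CL the mean log2 abundance of the 77 activated targets was taken, which was 10.56, 10.71, 10.52 and 10.62 in the CL of pregnancy, against 10.83, 10.86, 10.73 and 10.65 in the CL of the estrous cycle. Group means were then removed and the relation was tested by an exact two-sided permutation within groups (576 arrangements, 8 CL), for 9 members. For MYC the relation with its targets did not pass (r = -0.23, exact permutation p = 0.675, adjusted p = 0.833; rho = -0.10, exact permutation p = 0.861, adjusted p = 0.969). Without cyclic replicates 1 and 2, the CL farthest in MYC, r was -0.57. Leaving out a single CL gave r from -0.74 without cyclic replicate 2 to 0.07 without cyclic replicate 1, so its size and sign rest on these CL.

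The strongest relation was that of MXI1, which was lower where the targets were higher (r = -0.75, exact permutation p = 0.0694, adjusted p = 0.492; rho = -0.79, exact permutation p = 0.0521, adjusted p = 0.469). It missed the threshold before and after adjustment. Without pregnant replicate 1 and cyclic replicate 3, the CL farthest in MXI1 from the median of the 8 deviations, r was -0.92. Group means were not taken again after these CL, or those for MYC, were left out. For the other 7 members r lay between -0.65 (MYCN) and 0.26 (MLX), with adjusted p from 0.492 to 0.833 by exact permutation. For MNT r was 0.12, and leaving out pregnant replicate 2 alone turned it to -0.88. All relations share the 8 libraries.

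**Figure D5:**
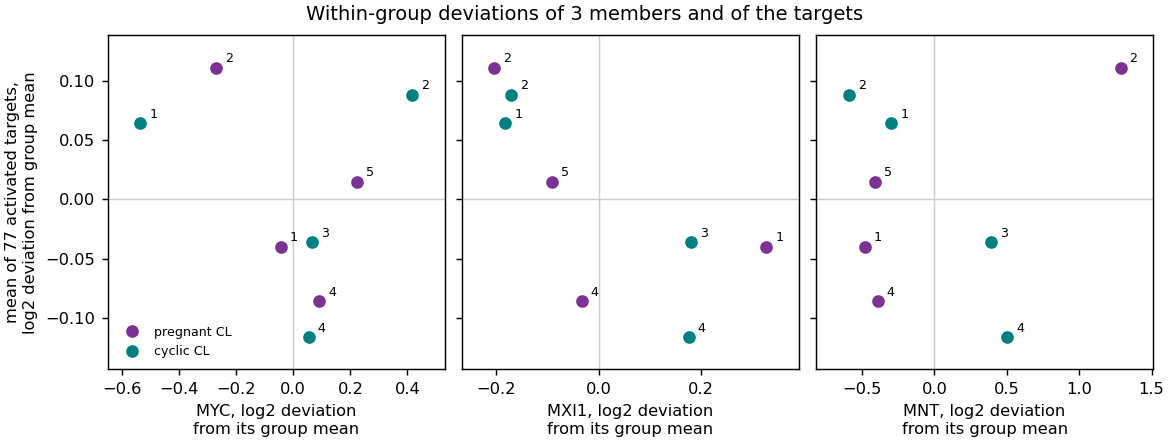
Mean log2 abundance of the 77 activated targets against MYC, MXI1 and MNT over the 8 CL, each as a deviation from its group mean, with CL of pregnancy and of the estrous cycle in different colors. For MYC the points form no line (r = -0.23), for MXI1 they slope down (r = -0.75), and for MNT pregnant replicate 2 lies alone at the right edge.

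Genes whose pattern was most like that of MYC were sought by Pearson's r over the same group-centred log2 values of the 8 CL, among 10091 named genes with a mean of at least 100 normalized counts that were in no list. With r above 0.9 there were 79 genes and with r below -0.9 there were 93, so many genes come this close over 8 CL, and r is given as a description. The highest were PTRHD1 (r = 0.985), GRB10 (0.983), an adaptor that restrains insulin receptor signaling, and CCDC48 (0.981). GRB10 had 4720, 4547, 5616 and 5793 normalized counts in the CL of pregnancy, against 3527, 5943, 4826 and 4817 in the CL of the estrous cycle, and its lowest and highest CL were cyclic replicates 1 and 2, which were also the lowest and the highest CL of the estrous cycle for MYC. The lowest were INTU (r = -0.988), a planar polarity protein, CSNK1A1 (-0.980), a casein kinase of the WNT pathway, and PPP2R3A (-0.976), a regulatory subunit of the phosphatase PP2A. Between the groups these 6 genes differed by -0.18 to 0.29 on the log2 scale. Their likeness to MYC lies within the groups because group means were removed before the search.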

How the data were processed

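RNA from 8 day 17 CL was sequenced, and 1 table of 13861 genes was used. Its values are signal, which the authors deposited as normalized counts after scaling the reads of every gene by a single factor in each CL. The aligner, counter, annotation and genome build were not given in the sources used here, and no coordinates are printed. Columns of the authors' group means were not used.

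Dividing the values of a CL by the smallest of them gave whole numbers, within 0.01, for 99.9%, and these were taken as reads. By this division every gene had at least 1 read in every CL. The design foresaw edgeR if the table held counts and limma if it did not, so limma 3.58.1 (trend, R 4.3.3) was fitted to log2(value + 1) over all 8 CL, with no covariate and a mean of at least 1, which every gene passed. P-values were adjusted by Benjamini-Hochberg over all genes and called under 0.05. They measure the spread between heifers. Where a symbol had more than 1 row, that with the highest mean was used. A listed gene with no row under its own symbol was looked for under an older symbol, except MYCL. Alternatives were no filter, a stricter minimum mean of 5, quantile normalization, a pseudocount of 0.1 or 0.5, an adjusted p under 0.10, each CL left out, a replicate block, and edgeR 4.0.16, DESeq2 1.42.0 and limma-voom on the recovered reads. DESeq2 at an adjusted p under 0.10 and the counts of members called under each alternative were added after seeing the data. Relations were computed in Python 3.11.15 with numpy 2.4.6, pandas 2.3.3 and scipy 1.17.1, and plots with matplotlib 3.10.9. The limma fit was also run on simulated data with changes larger than most of those described here. How well it finds changes of their size was not tested.

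The members and lists were chosen with earlier results of these data known. Named genes are the members, from each list the 4 genes at most of smallest limma p and the 2 at most of highest mean, and the 3 genes most and the 3 least like MYC. Only some of these are printed. The list of red cell markers matched 0 genes.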

Additional observations from a re-analysis of the deposited data

Results flagged for a closer look

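MNT in pregnant replicate 2, at 3341 normalized counts, lay far from the other 3 CL of pregnancy, with a gap to the nearest of 0.974 of the range of its group. MGA in cyclic replicate 2, at 3402 normalized counts, lay below the other 3 CL of the estrous cycle, with a gap of 0.861 of the range. Both gaps exceed the critical value of Dixon's test for 4 samples. Of 18 groups of 4 CL that were looked at, these 2 did so, where chance passes about 0.9, so no pattern is read from the number.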

How the results depend on the processing

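Under 17 alternatives, the log2 differences of the 9 members moved by less than the SD between CL, which is a wide bound. This SD was larger than the size of the difference itself for MAX, MXD1, MXD4, MXI1, MNT (0.71 against -0.58) and MGA. The signs of MAX, MXI1 and MGA turned within it, so it does not show that the differences are stable. The 9 relations with the targets missed an adjusted p of 0.05 under each of 12 alternatives, but r itself moved: with a CL left out it ran from -0.74 to 0.07 for MYC, from -0.45 to 0.34 for MAX and from -0.88 to 0.43 for MNT. With all genes tested, limma called 3 genes, 1 to 4 with a CL left out, edgeR 1, limma-voom 1 and DESeq2 95, and DESeq2 at an adjusted p under 0.10, added after seeing the data, called 158. At that threshold DESeq2 called 3 of the 77 activated targets, against 1.14% of all genes, and the same number at 0.05. The median of the MGA complex (-0.07) ran from -0.11 without cyclic replicate 4 to -0.03 without cyclic replicate 2. With a CL left out, medians ran from -0.36 to -0.13 for cell cycle targets, from -0.14 to 0.00 for mitochondrial targets and from -0.21 to -0.11 for repressed genes, and those of other E-box factors (-0.01 to 0.08), turnover (-0.04 to 0.03) and mRNA regulators (-0.07 to 0.01) changed sign. The cause of these differences was not tested.

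Replicate numbers did not pair the CL: deviations of CL with the same number correlated at 0.04, -0.06 and 0.03, and no CL of pregnancy was most like the CL of its own number. With the replicate block limma called 0 genes (1153 at an unadjusted p under 0.05, against 1041 without the block). Pregnant replicate 5 and cyclic replicate 3 have no CL of their number in the other group. They therefore do not enter the blocked differences, which rest on fewer CL than those above. The blocked log2 difference was -0.69 for MYC, 1.28 for MYCN, 0.00 for MAX, 0.36 for MXD1, 0.08 for MXD4, 0.14 for MXI1, -0.32 for MNT, 0.83 for MLX and 0.05 for MGA.

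With 4 CL in a group, single differences such as that of MLX (SE 0.37) are loosely set. MYCN rests on 3 to 37 reads in a CL. MNT depends on pregnant replicate 2, and MLX on a row described as a fragment. Abundance of mRNA does not give the level of MYC protein, which is set by its turnover too.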
